A study of Mus musculus with 13 samples.

Results

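Liver RNA taken after diethylnitrosamine (DEN) was compared between mice whose retinoblastoma protein (RB) was mutated or deleted and mice that kept functional RB. All arrays labelled as DEN-treated were used, 11 of the 13 arrays of the series. The RB-mutant side pooled 5 N750F arrays and 2 knockout (KO) arrays, and the RB-functional side pooled 2 heterozygous (Het) arrays and 2 wild type (WT) arrays, so that 7 arrays stood against 4. The comparison asked which genes differed with RB function after a DNA-damaging carcinogen, and which of them moved the same way in both genotypes on each side.

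Mice were 14 days old when they received 1 intraperitoneal injection of DEN in saline at 20 mg/kg, and livers were taken 24 h later. N750F livers were labelled as RB-N750F mutant, and neither the second Rb1 allele nor Cre was stated for the single sample. Knockout livers carried floxed Rb1 together with Cre recombinase, which removes exon 19. Heterozygous livers carried 1 functional allele and 1 floxed allele with Cre, and their genotype tag reads LOH, a term that the labels do not explain. Wild type livers carried floxed Rb1 without Cre. Cre was expressed from the albumin promoter, per the series' design, so that hepatocytes and not the other liver cells were its target. The 2 arrays outside the comparison came from livers labelled untreated, floxed without Cre, and their levels are given beside some genes without a test.

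RB and its relatives p107 (Rbl1) and p130 (Rbl2) bind E2F transcription factors and keep the genes for DNA replication and mitosis low in resting cells. The N750F substitution lies in the cleft through which RB holds partners that carry an LXCXE motif, many of them chromatin regulators. Hepatocytes of young mice are still dividing. DEN is turned into a DNA-alkylating agent by cytochromes P450, and the resulting damage activates p53 and halts the cell cycle.

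Levels are log2 of the quantile-normalised array intensity plus 16, and changes are differences on that scale, RB-mutant minus RB-functional, with array run as a term, where 1 unit is a 2-fold change for bright genes and understates the change of dim ones. The arrays were processed in 2 runs according to the names in the labels, called batch 1 (9 arrays) and batch 2 (4 arrays). N750F had 3 arrays in batch 1 and 2 in batch 2, both knockout arrays were in batch 1, and heterozygous and wild type had 1 array in each. The Y-linked genes Eif2s3y, Kdm5d and Uty were at background in 4 of the 5 N750F arrays and in both wild type DEN arrays, and high in 1 N750F array, both knockout arrays and both heterozygous arrays. Xist, which is expressed in females, was at 8.049 in Het array 4 although its Y-linked mean was 9.344. It was at 5.637 to 6.165 in the other arrays with Y-linked signal and 12.309 to 12.776 in those without. The cause in Het array 4 was not tested. KO array 2 stood apart: the mean of 8 skeletal muscle genes was 8.24 there, against 6.30 to 6.63 in the other 12 arrays. The muscle gene Tnnt3, chosen after its values were seen, was at 11.96 in KO array 2, against 4.49 to 6.18 in the other DEN arrays. Alb, the albumin gene that marks hepatocytes, was at 12.79 to 13.01 in RB-mutant arrays and 12.85 to 12.99 in RB-functional arrays. These values lie at the top of the normalised scale, where the same value recurs on several arrays (12.91 on N750F array 5, KO array 2 and WT array 4), so they mark the tissue as liver and cannot show a difference in hepatocyte content. In whole liver, fewer cells of a type and less RNA per cell cannot be told apart. Precision is limited by the number of arrays, and nothing in the labels says whether the arrays of a group came from separate litters.

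Rb1 itself (probe set 10421526, chromosome 14) did not separate the pools. Its level was 8.23, 7.82, 8.43, 8.06 and 7.93 in the N750F arrays and 7.92 and 6.57 in the knockout arrays, against 7.92 and 7.62 in heterozygous arrays and 8.04 and 8.01 in wild type arrays. KO array 2 was the lowest of the 11 and KO array 1 lay among the RB-functional arrays. The pooled change was -0.04 ± 0.29 (SE, limma adjusted p = 0.979). Its level does not check the knockout label, because no source used here says whether the probe set lies in exon 19.

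Of 14953 genes tested, 240 rose in RB-mutant livers (1.61%) and 56 fell (0.375%) at a limma adjusted p of 0.05. The genes that rose were led by mitotic genes together with Igf2, and those that fell by enzymes of drug, steroid and glutathione metabolism. Of the called genes, 188 rose and 43 fell by more than 1 log2 unit. The 7 RB-mutant arrays all lay above the 4 RB-functional arrays in 161 of the 240 genes that rose, and all below them in 39 of the 56 that fell. Over all genes tested, without regard to the call, the 7 lay above the 4 in 249 genes (1.67%) and below them in 108 (0.722%).

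All 240 genes that rose and all 56 that fell moved the same way in both genotypes on each side. That is, N750F minus Het, N750F minus WT, KO minus Het and KO minus WT had the sign of the pooled change in all 296, and this held for 5353 of all genes tested (35.8%). These 4 differences share arrays with each other and with the pooled call, so the count is a description. Within batch 1 alone and within batch 2 alone the difference also had the pooled sign in all 296, again on the arrays that made the calls. Among genes called higher, the median difference from the RB-functional genotypes was 1.42 for N750F and 1.18 for knockout, and among genes called lower it was -1.29 for N750F and -1.17 for knockout. Over all genes these medians were -0.01 for N750F and -0.0028 for knockout. Most RB-mutant arrays behind the calls were N750F, which favours a larger N750F median among called genes.

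The arrays behind these calls were unequal. The N750F difference was the larger in 224 of the 296 genes and the knockout difference in 72. N750F gave 5 of the 7 RB-mutant arrays, so the call itself favours genes with a large N750F difference. The same split over all genes tested was not counted. All 5 N750F arrays lay beyond every RB-functional array in 250 of the 296, KO array 1 in 293 and KO array 2 in 236. Without KO array 2, 516 genes were called, 406 higher and 110 lower, and they contained all 296. With the knockout arrays alone against the RB-functional pool, in a separate fit without N750F, 0 genes passed the limma threshold, and 821 had an unadjusted p under 0.05. In the limma fit of the 4 genotypes, KO minus WT called 6 higher and 0 lower, and KO minus Het 15 higher and 5 lower. There N750F minus WT called 123 higher and 28 lower, and N750F minus Het 164 higher and 46 lower. Without Het array 3, 140 rose and 28 fell, and without N750F array 5, 149 rose and 32 fell. Batch 1 alone called 12 higher and 6 lower, and batch 2 alone, with 4 arrays, 1 higher and 0 lower.

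**Figure D1:**
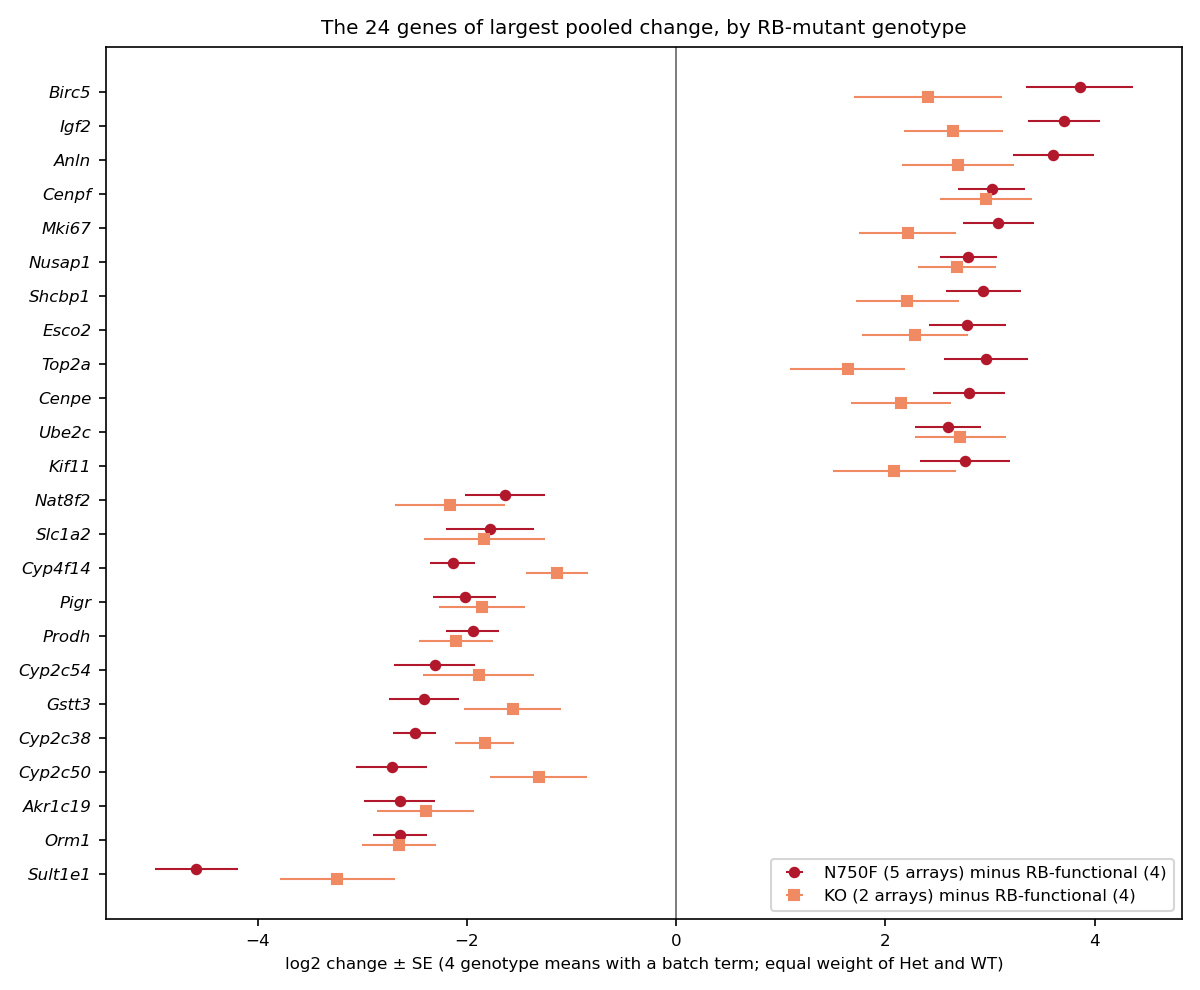
Log2 change ± SE of N750F (circles, 5 arrays) and knockout (squares, 2 arrays) against the RB-functional arrays, for the 12 named genes of largest change in each direction that the pooled comparison called. Every point lies on the side of its pooled change, from 3.86 for Birc5 to -4.59 for Sult1e1 in N750F.

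Mitosis held the broadest change. Of the tested genes for cytokinesis and mitotic motors, 22 of 23 rose, with a median change of 2.02. Among cyclins A and B, CDK1 and mitotic kinases 15 of 19 rose (median 1.75), among centromere and kinetochore genes 12 of 18 (median 1.56), and among spindle checkpoint and anaphase genes 8 of 15 (median 1.28). None of these tested genes fell, and the median over all genes was -0.01. The filter on dim genes used the mean over all 13 arrays, 7 of them RB-mutant. A gene dim in RB-functional arrays could pass it through its RB-mutant level, which favours higher members in these counts and medians. In the cytokinesis list 23 of 28 genes with a probe set passed the filter, and Racgap1, Kif22, Kif2c, Fam64a and Iqgap3 were too dim. Without KO array 2 the counts were 23 of 23, 15 of 19, 16 of 18 and 8 of 15 for these 4 lists in the same order. KO array 2 is the single array whose omission gave the most calls, so these counts do not check robustness. List counts without other arrays were not made. Of 95 named called genes, 95 still passed without KO array 2, against 71 without Het array 3.

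The smallest p of all genes belonged to Kif18b, a kinesin that controls microtubule length in mitosis (probe set 10391811). It had 7.01, 6.63, 6.59, 6.82 and 6.34 in N750F arrays and 6.85 and 6.91 in knockout arrays, against 4.46 and 4.81 in heterozygous arrays and 4.93 and 4.75 in wild type arrays. The RB-mutant arrays lay close together and well clear of the RB-functional ones, and the change was 1.98 ± 0.17 (SE, limma adjusted p = 0.000191). All 4 RB-functional values lie within the range of absent genes, taken from Y-linked genes in the arrays without Y signal (4.13 to 4.94). Set against the top of that range, the RB-mutant mean was higher by 1.80 on the log2 scale. The range comes from Eif2s3y, Kdm5d and Uty alone and is not an upper limit for every probe set. Xist lay above it, at 5.637 to 6.165, in the arrays with Y-linked signal other than Het array 4. For Kif18b the 2 untreated arrays were split, at 6.79 and 4.75.

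Ccnb2, a B-type cyclin that activates CDK1, was at 8.45, 8.39, 8.26, 8.97 and 8.38 in N750F arrays and 9.04 and 8.28 in knockout arrays, against 6.38 and 6.28 in heterozygous arrays and 6.66 and 6.78 in wild type arrays. It rose by 2.04 ± 0.20 (limma adjusted p = 0.000217) with no overlap between the pools. Cenpf, a kinetochore protein, ran from 8.06 to 9.48 (median 8.83) in the 7 RB-mutant arrays, against 5.74 and 6.32 in heterozygous arrays and 6.33 and 5.15 in wild type arrays. Its change was 3.00 ± 0.29, and its knockout and N750F differences were nearly equal, at 3.01 for N750F and 2.96 for knockout.

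Anln, the anillin scaffold of the contractile ring, and Birc5, survivin of the chromosomal passenger complex, gave the largest increases among mitotic genes. Anln was at 8.46, 8.79, 8.71, 8.68 and 8.83 in N750F arrays and 9.09 and 6.96 in knockout arrays, against 5.74 and 4.21 in heterozygous and 5.76 and 4.42 in wild type arrays. Birc5 was at 8.34, 9.44, 8.89, 8.87 and 8.51 in N750F arrays and 9.15 and 5.67 in knockout arrays, against 4.61 and 4.46 in heterozygous and 5.32 and 5.38 in wild type arrays. In both genes KO array 2 was the lowest RB-mutant array and still lay above the RB-functional arrays. The changes were 3.39 ± 0.39 for Anln and 3.52 ± 0.56 for Birc5 (limma adjusted p = 0.000529 for Anln and 0.00317 for Birc5). Anln in Het array 4 and WT array 4, and Birc5 in both heterozygous arrays, lay within the range of absent Y-linked genes (4.13 to 4.94). The sizes and their rank are less certain for that reason.

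Mki67, the Ki-67 proliferation antigen, ranged from 7.95 to 10.14 (median 9.99) in RB-mutant arrays, against 6.51, 6.22, 7.20 and 7.42 in RB-functional arrays. It rose by 2.87 ± 0.38, and the lowest of its RB-mutant arrays was again KO array 2. Nusap1, a spindle microtubule protein, rose by 2.77 ± 0.28, and the kinetochore motor Cenpe by 2.65 ± 0.37. Top2a, the topoisomerase that decatenates chromosomes, and Kif11, the motor that separates spindle poles, rose by 2.65 ± 0.45 and 2.60 ± 0.46, and in both the pools overlapped through KO array 2. A second probe set of Top2a, dimmer than the one used, changed by 0.17. Ube2c, which tags mitotic cyclins for degradation, rose by 2.62 ± 0.41, and Esco2, a cohesin acetyltransferase, by 2.66 ± 0.35. Kif11 (4.62) and Ube2c (4.69) in Het array 4 and Esco2 (4.43) in WT array 4 were also within the range of absent Y-linked genes.

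The kinases followed. Plk1 rose by 2.28 ± 0.27, Aurka by 1.63 ± 0.20, Ttk by 2.41 ± 0.30 and Bub1b by 1.99 ± 0.25, all 4 without overlap of the pools. Pttg1, the securin that restrains the separation of sister chromatids, rose by 1.99 ± 0.23, and Mad2l1, which delays anaphase, by 2.10 ± 0.30. In the mitotic kinase list the genes that did not pass were Wee1 (-0.21) and Pkmyt1 (0.28), kinases that inhibit CDK1, and Cdc25b (-0.09) and Cks2 (0.15), named here after their values were seen. In the condensin and cohesin list 6 of 12 rose (median 0.79). All 6 were condensin subunits: Smc2 rose by 2.26 ± 0.27, Ncapg by 2.27 ± 0.35, Ncapg2 by 1.44 ± 0.23, Smc4 by 1.43 ± 0.28 and Ncapd2 by 0.94 ± 0.18, with Ncaph beside them. Of the 6 tested genes that did not pass, 5 were cohesin genes, with changes of 0.18 (Stag2) to 0.48 (Smc1a). The remaining gene is not named here, and the condensin subunit Ncaph2 was too dim to be tested.

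**Figure D2:**
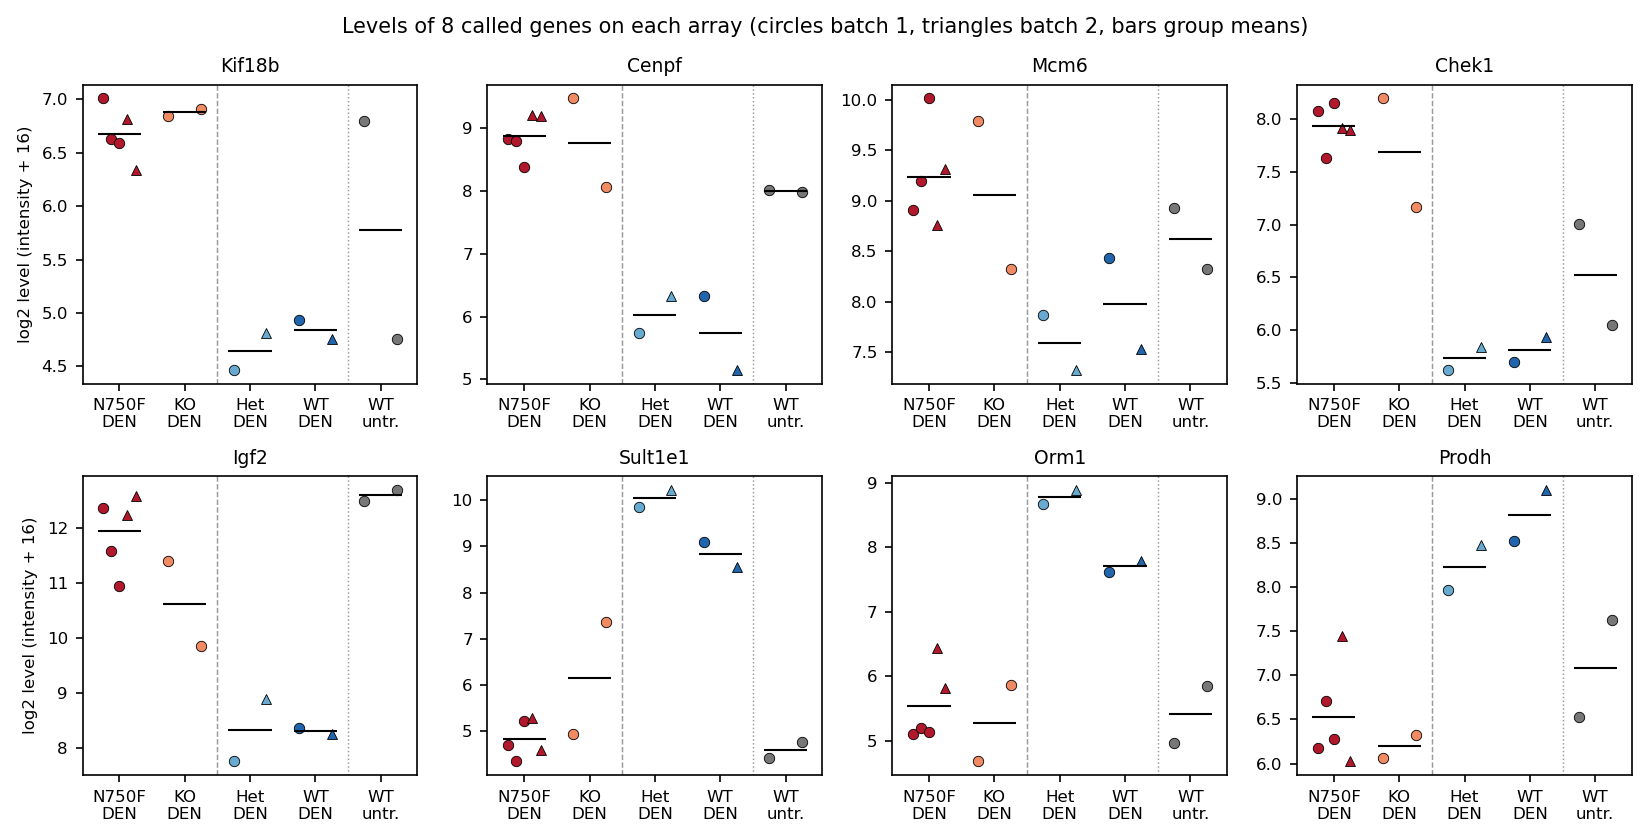
Log2 level of 8 called genes on each of the 13 arrays, by group (N750F, KO, Het and WT after DEN, then untreated WT). Circles are batch 1 arrays, triangles batch 2 arrays and bars group means. The RB-mutant arrays lie above the RB-functional ones for Kif18b, Cenpf, Chek1 and Igf2 and below them for Sult1e1, Orm1 and Prodh, while Mcm6 overlaps through KO array 2.

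Promoter sequence was read for the genes that moved together, in RefSeq windows of 250 bases before to 50 bases after the start of the gene (GRCm38.p6). The motifs searched on both strands were the CHR element (TTTGAA), a site of cell cycle genes bound by the DREAM complex that holds RB relatives, and 4 spellings of the E2F site (TTTCCCGC, TTTGGCGC, TTTCGCGC and TTTGCCGC). The CHR letters were present in 30 of the 49 called mitosis genes with a window (61.2%), in 32.8% of all genes that rose, in 9.3% of those that fell, and in 13.8% of the 11813 tested genes with a window. Over all 65 tested mitosis genes with a window, called or not, the share was 61.5%. A CCAAT box, the bare 5 letters on either strand, was present in 69.4% of the called and 70.8% of all tested mitosis genes, in 76.5% of the called replication genes, in 55.9% of all genes that rose, in 48.8% of those that fell and in 37.9% of all. The promoters of Kif18b, which had the smallest p of all genes, and Ccnb2, which had the smallest p of the mitotic kinase list, are shown with the CHR letters in capitals. Both are on the minus strand, Kif18b at chr11:102925075-102925374 and Ccnb2 at chr9:70421505-70421804.
Kif18b: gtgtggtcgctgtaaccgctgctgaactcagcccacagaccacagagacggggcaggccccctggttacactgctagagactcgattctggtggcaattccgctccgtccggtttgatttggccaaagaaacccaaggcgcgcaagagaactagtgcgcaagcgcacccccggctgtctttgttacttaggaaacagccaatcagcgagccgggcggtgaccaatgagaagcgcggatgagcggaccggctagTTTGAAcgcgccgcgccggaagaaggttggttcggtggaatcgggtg
Ccnb2: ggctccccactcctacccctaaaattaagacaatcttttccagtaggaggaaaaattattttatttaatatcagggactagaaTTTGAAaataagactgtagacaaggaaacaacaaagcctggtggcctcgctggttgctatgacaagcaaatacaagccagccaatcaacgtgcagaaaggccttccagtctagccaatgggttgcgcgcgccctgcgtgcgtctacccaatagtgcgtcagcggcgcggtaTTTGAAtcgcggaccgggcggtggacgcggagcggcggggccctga
The Kif18b window held 1 match and the Ccnb2 window held 2. A match is a description of letters and not a measured site.

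DNA replication genes rose as well, by smaller amounts. In the origin licensing and MCM helicase list 7 of 15 rose (median 0.88), in the polymerase, clamp and primase list 11 of 20 (median 1.03), and in the deoxynucleotide list 4 of 8 (median 1.13), with none lower. Without KO array 2 the counts were 10 of 15, 15 of 20 and 5 of 8 in that order. Among the subunits of the MCM helicase that unwinds DNA, Mcm4 rose by 1.73 ± 0.28, Mcm7 by 1.63 ± 0.33, Mcm6 by 1.31 ± 0.29 and Mcm3 by 1.15 ± 0.20, while Mcm2 (0.69) did not pass and Mcm5 was too dim to be tested.

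Mcm3 was at 7.29, 7.52, 7.69, 7.58 and 7.67 in N750F arrays and 7.83 and 6.84 in knockout arrays, against 6.15 and 6.22 in heterozygous arrays and 6.39 and 6.76 in wild type arrays. The pools came close but did not overlap, with KO array 2 lowest among RB-mutant arrays and WT array 4 highest among RB-functional ones. Mcm6 was at 8.91, 9.19, 10.02, 8.76 and 9.31 in N750F arrays and 9.79 and 8.32 in knockout arrays, against 7.86 and 7.32 in heterozygous arrays and 8.43 and 7.53 in wild type arrays. KO array 2 fell below WT array 3 here, and the limma adjusted p was 0.00582 for Mcm3 and 0.0308 for Mcm6.

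E2F letters were present in the promoter windows of 6 of the 17 called replication genes with a window (35.3%), in 25% of the 36 tested replication genes with a window, in 13.3% of all genes that rose, in 0 of the 43 that fell, and in 3.34% of all tested genes. In the called mitosis genes the share was 8.16%, and the CHR letters were present in 17.6% of the called replication genes. Among the called replication genes, Mcm3, Mcm6, Mcm7 and Rfc3 hold more than 1 match. The Mcm3 and Mcm6 windows are shown as examples, 2 subunits of the same helicase, with the E2F letters on either strand in capitals (GRCm38.p6, minus strand, Mcm3 at chr1:20820263-20820562 and Mcm6 at chr1:128359656-128359955).
Mcm3: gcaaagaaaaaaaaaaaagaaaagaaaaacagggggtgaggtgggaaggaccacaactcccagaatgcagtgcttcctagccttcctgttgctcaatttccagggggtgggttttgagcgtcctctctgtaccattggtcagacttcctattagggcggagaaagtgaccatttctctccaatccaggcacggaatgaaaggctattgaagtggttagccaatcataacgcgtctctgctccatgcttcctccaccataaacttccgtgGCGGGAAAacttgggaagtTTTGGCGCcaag
Mcm6: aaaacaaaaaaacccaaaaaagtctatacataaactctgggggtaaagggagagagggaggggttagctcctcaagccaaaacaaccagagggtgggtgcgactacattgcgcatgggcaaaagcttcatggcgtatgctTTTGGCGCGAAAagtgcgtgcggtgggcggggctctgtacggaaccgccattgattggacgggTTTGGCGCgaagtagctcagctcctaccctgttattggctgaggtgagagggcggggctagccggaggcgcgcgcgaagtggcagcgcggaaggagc
The Mcm3 window held 2 matches, the first of them on the opposite strand, and the Mcm6 window held 3, of which the first 2 overlap.

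Prim1, the catalytic subunit of primase, ran from 9.33 to 10.63 (median 10.17) in RB-mutant arrays, against 8.83 and 7.72 in heterozygous arrays and 8.65 and 6.96 in wild type arrays, a rise of 1.95 ± 0.30. Pola1, the polymerase that extends primers, rose by 1.55 ± 0.26, Prim2 by 1.01 ± 0.19 and the clamp loader subunit Rfc3 by 1.08 ± 0.20. Dnmt1, which copies DNA methylation onto new strands, had a narrow spread, 9.93 ± 0.22 in RB-mutant and 8.75 ± 0.17 in RB-functional arrays (SD, n = 7 and n = 4), and rose by 1.20 ± 0.17. Rrm1, the large subunit of ribonucleotide reductase, ran from 7.42 to 9.22 (median 8.82) in RB-mutant arrays, against 7.26, 6.25, 7.38 and 6.32 in RB-functional arrays, and rose by 1.69 ± 0.30. In Rrm1 the lowest RB-mutant array, KO array 2, was nearly level with WT array 3. The small subunit Rrm2 rose by 2.12 ± 0.50, Dck, a salvage kinase, by 1.45 ± 0.25, and Dut, which clears dUTP, by 1.06 ± 0.24, while thymidylate synthase Tyms (1.20 ± 0.34, limma adjusted p = 0.109) did not pass.

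Among the regulators of S phase entry few genes passed. Of 20 tested genes of the RB family, the E2F factors and their partners, 2 rose (median 0.12; 5 of 20 without KO array 2), and of 13 G1/S cyclins, kinases and inhibitors 3 rose (median 0.32). Rbl1, itself an E2F target, was at 8.13, 8.39, 8.66, 8.02 and 7.58 in N750F arrays and 8.59 and 7.44 in knockout arrays, against 7.03 and 6.58 in heterozygous arrays and 7.21 and 6.19 in wild type arrays. The pools did not overlap, and the change was 1.24 ± 0.23 (limma adjusted p = 0.00891). Foxm1, the activator of G2/M genes, rose by 1.92 ± 0.37. E2f7 (0.96 ± 0.25, limma adjusted p = 0.0697) and E2f8 (1.58 ± 0.47, limma adjusted p = 0.135), repressors that E2F itself induces, did not pass, and E2f1, E2f2 and Mybl2 were too dim to be tested.

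Ccne2, cyclin E2, which opens S phase with CDK2, was at 8.76, 8.89, 9.27, 8.90 and 8.60 in N750F arrays and 8.96 and 7.59 in knockout arrays, against 7.52 and 7.41 in heterozygous arrays and 7.90 and 7.53 in wild type arrays. Apart from KO array 2, which lay between the RB-functional arrays, the RB-mutant arrays were all higher. The change of 1.11 ± 0.27 was close to the threshold (limma adjusted p = 0.0469) and missed it under several alternatives. Cdk2 rose by 1.12 ± 0.24. The CDK inhibitor Cdkn1c rose by 0.85 ± 0.18, with 7.97 to 9.15 in RB-mutant arrays and 7.48 to 8.19 in RB-functional arrays. Myc had a change of -1.08 ± 0.39 that did not pass (limma adjusted p = 0.248).

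Genes of the replication checkpoint and homologous recombination rose in 9 of 17 cases (median 1.06), while none of 28 p53 targets passed in either direction (median 0.06). Without KO array 2 the counts were 13 of 17 and 0 of 28. Chek1, the checkpoint kinase that slows replication on damaged DNA, was at 8.08, 7.63, 8.15, 7.92 and 7.90 in N750F arrays and 8.20 and 7.17 in knockout arrays, against 5.62 and 5.84 in heterozygous arrays and 5.69 and 5.94 in wild type arrays. The gap between the pools was wide, and Chek1 rose by 2.12 ± 0.20 (limma adjusted p = 0.000217). Clspn, the claspin adaptor of CHK1, rose by 1.62 ± 0.30, Rad54b by 1.57 ± 0.27, Brca1 by 1.49 ± 0.27 and Brca2 by 1.24 ± 0.25.

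Among p53 targets, Ccng1, cyclin G1, chosen after its values were seen, was at 12.36 to 12.72 in RB-mutant arrays and 12.43 to 12.69 in RB-functional arrays, against 10.59 and 10.69 in the untreated arrays. The ranges of the pools overlapped, with all DEN arrays above the untreated ones, and the pooled change was -0.04 ± 0.14 (limma adjusted p = 0.952). These DEN values lie near the top of the normalised scale, and 12.55 recurred on N750F array 4 and WT array 3. That limits what they can show about a difference between the pools. Mdm2, the ligase that degrades p53, chosen likewise, had a change of -0.15 ± 0.19 with array run as a term (limma adjusted p = 0.828). The 2 targets of smallest p were Btg2, an antiproliferative gene, at 0.91 ± 0.38, and the apoptosis gene Pmaip1, at 0.82 ± 0.28, with limma adjusted p of 0.369 for Btg2 and 0.217 for Pmaip1. Cdkn1a and Bax were not analysed here, since their probe sets were not listed under 1 symbol.

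**Figure D3:**
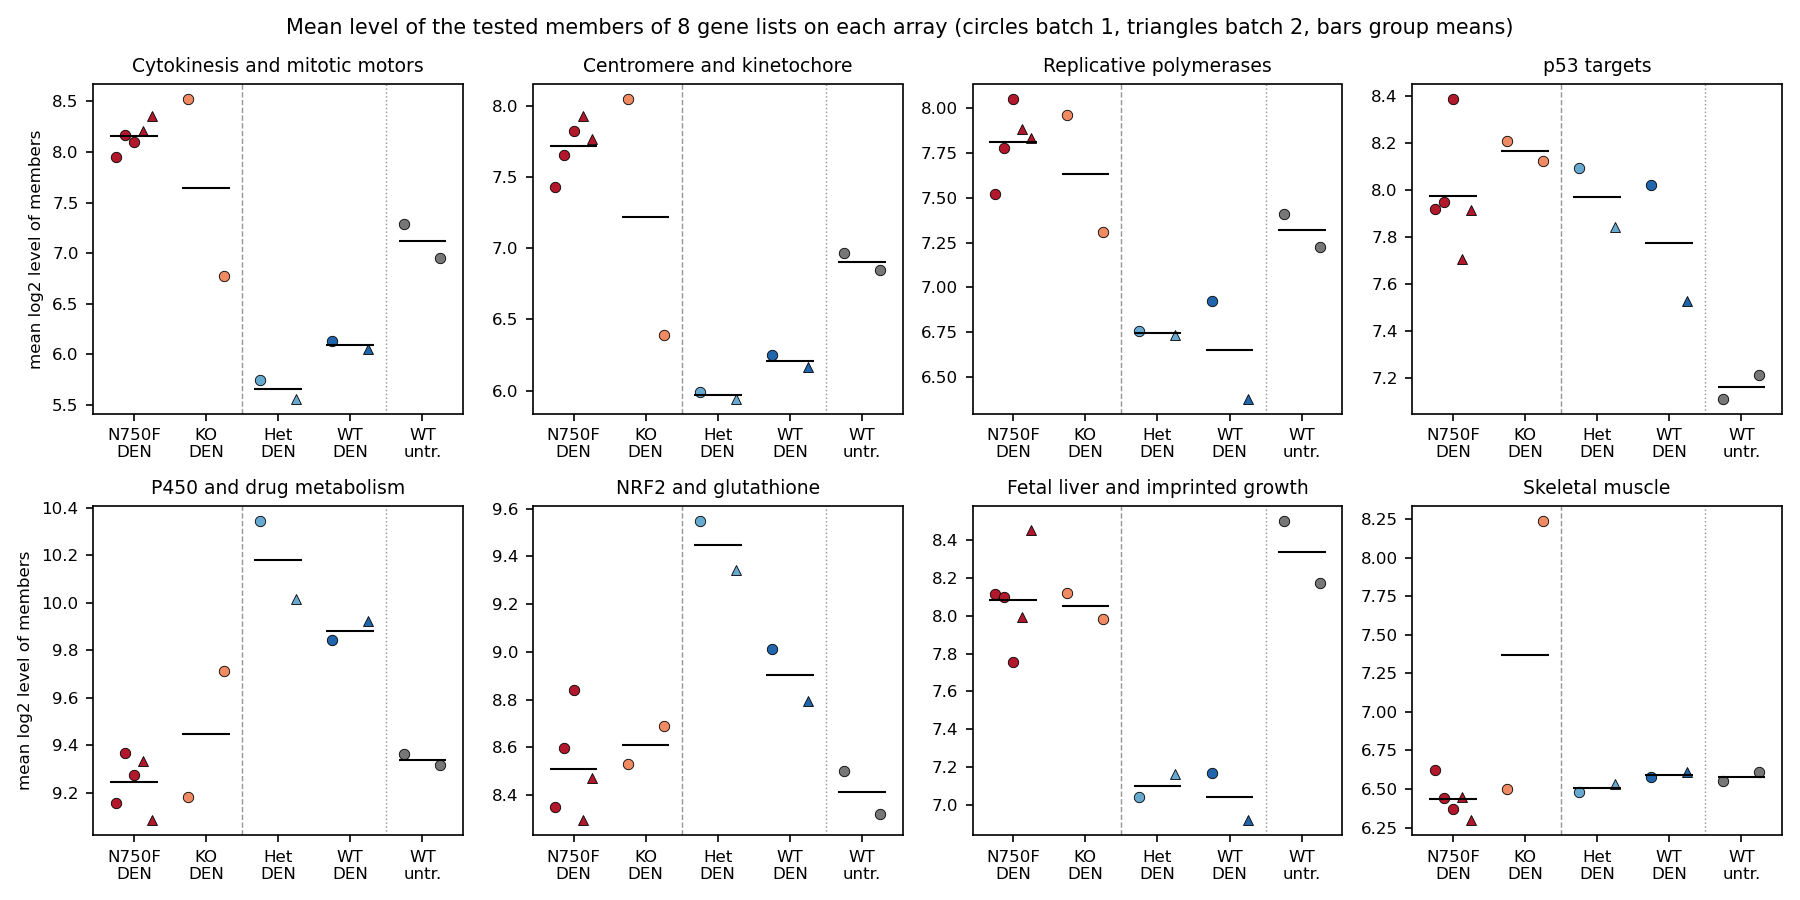
Mean log2 level of the tested members of 8 gene lists on each of the 13 arrays, by group. The 7 RB-mutant arrays lie above the 4 RB-functional arrays for the cytokinesis, centromere, polymerase and fetal lists and below them for the P450 list, the NRF2 list overlaps in N750F array 3 and WT array 4, p53 targets overlap, and KO array 2 alone is high for skeletal muscle (8.24).

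Genes of the fetal liver and of imprinted growth control rose in 6 of 16 cases (median 0.93), and no member fell. Igf2, the fetal insulin-like growth factor that is silenced in the liver after birth, was at 12.37, 11.60, 10.96, 12.24 and 12.60 in N750F arrays and 11.41 and 9.85 in knockout arrays, against 7.75 and 8.89 in heterozygous arrays and 8.35 and 8.25 in wild type arrays. The lowest RB-mutant array, KO array 2, stayed above the highest RB-functional one, and Igf2 rose by 3.46 ± 0.37 (limma adjusted p = 0.000435). The untreated arrays, at 12.49 and 12.71, lay beside the highest N750F arrays.

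The paternally expressed genes Mest and Peg3 rose by 1.54 ± 0.27 and 1.45 ± 0.30, each with some overlap between the pools, and Cd24a, a surface protein of immature liver cells, by 1.26 ± 0.27 without overlap. Afp, alpha-fetoprotein, named after its values were seen, rose by 2.25. Dlk1 (-0.09) and Hmga2 (0.10), other members named after their values were seen, did not pass. The mean level of the list ran from 7.76 to 8.45 in RB-mutant arrays and from 6.92 to 7.17 in RB-functional arrays, and was 8.50 and 8.17 in the untreated arrays.

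Drug-metabolising enzymes made up most of the largest decreases. Of 39 tested cytochromes P450 and conjugating enzymes 7 fell and none rose (median -0.42), and without KO array 2 the number that fell was 10. Sult1e1, the sulfotransferase that inactivates oestrogen (probe set 10531111), was at 4.71, 4.35, 5.22, 5.29 and 4.60 in N750F arrays and 4.95 and 7.37 in knockout arrays, against 9.84 and 10.22 in heterozygous arrays and 9.10 and 8.55 in wild type arrays. All RB-mutant arrays but KO array 2 were near the level of absent Y-linked genes (4.13 to 4.94). The change was -4.27 ± 0.49 (limma adjusted p = 0.000529). The untreated arrays were as low, at 4.43 and 4.77.

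Cyp2c38 was at 5.74, 6.46, 6.64, 6.32 and 6.42 in N750F arrays and 7.09 and 6.88 in knockout arrays, against 9.45 and 9.50 in heterozygous arrays and 8.29 and 8.04 in wild type arrays. It fell by 2.34 ± 0.31 on the log2 scale with no overlap of the pools, and the heterozygous arrays were the highest. It was 1 of 4 that fell among the 8 tested Cyp2c genes of the list, with Cyp2c50 (-2.39 ± 0.41), Cyp2c54 (-2.21 ± 0.40) and Cyp2c39 (-1.50 ± 0.22). Cyp2c37 (-0.44), Cyp2c29 (-0.42), Cyp2c55 (-0.32) and Cyp2c70 (-0.12), named to complete the count, did not pass. Cyp4f14 fell with a change of -1.90 ± 0.27. Members of this family are similar in sequence, and cross-hybridisation between them was not tested. Cyp2e1 (-0.32), the main enzyme that activates DEN, and Cyp3a11 (-0.05) did not pass, both named after their values were seen.

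Akr1c19, an aldo-keto reductase, was at 5.36, 6.18, 6.61, 7.53 and 5.96 in N750F arrays and 5.92 and 6.85 in knockout arrays, against 9.48 and 9.70 in heterozygous arrays and 8.35 and 8.54 in wild type arrays. The pools did not overlap, and the change was -2.59 ± 0.36 (limma adjusted p = 0.00146). Nat8f2, an N-acetyltransferase relative, had a change of -1.76 ± 0.36 with overlap of the pools.

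Glutathione transferases and other targets of the stress factor NRF2 fell in 9 of 26 cases, and none rose (median -0.48). Gstt3 ran from 7.89 to 10.16 (median 8.28) in RB-mutant arrays, against 11.34 and 11.10 in heterozygous arrays and 10.51 and 10.45 in wild type arrays. Its RB-mutant arrays were all lower, KO array 2 by the smallest margin, and the change was -2.21 ± 0.37. Gstm1, an abundant liver transferase, was at 10.97 to 11.81 (median 11.43) in RB-mutant arrays, against 12.76 and 12.80 in heterozygous arrays and 12.37 and 11.93 in wild type arrays, a change of -1.19 ± 0.19.

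The other Gstm genes that fell were Gstm2 (-1.67 ± 0.34), Gstm6 (-1.20 ± 0.20) and Gstm3 (-0.89 ± 0.15), where a second Gstm3 probe set changed by -1.49. The remaining genes of the list that fell were Nqo1 (-1.33), Ugdh (-1.25), Gstp1 (-1.06) and Gstt2 (-0.97), named to complete the count. Gclc (-0.20) and Gclm (0.04), the subunits of the enzyme for the first step of glutathione synthesis, and Hmox1 (0.20) did not pass. Het minus WT had a median of 0.60 over this list, and against the heterozygous arrays alone the list median was -0.91.

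Of 29 secreted hepatocyte proteins 1 fell and none rose, with a median of 0.09. The exception was Orm1, the acute phase protein orosomucoid, at 5.11, 5.19, 5.13, 6.43 and 5.82 in N750F arrays and 4.68 and 5.87 in knockout arrays, against 8.66 and 8.89 in heterozygous arrays and 7.62 and 7.79 in wild type arrays. All 7 RB-mutant arrays were lower, with N750F and knockout differences of -2.64 for N750F and -2.65 for knockout, and the pooled change was -2.64 ± 0.29 (limma adjusted p = 0.000529). Hamp2, a hepcidin gene, had a change of -1.17 ± 0.32 that did not pass (limma adjusted p = 0.0926).

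In amino acid and in bile acid metabolism 2 genes each fell. Prodh, which starts proline breakdown, was at 6.18, 6.71, 6.28, 7.44 and 6.02 in N750F arrays and 6.06 and 6.33 in knockout arrays, against 7.97 and 8.48 in heterozygous arrays and 8.52 and 9.10 in wild type arrays. The pools did not overlap and the change was -1.98 ± 0.25. The alanine aminotransferase Gpt had -1.58 ± 0.35, and the other 17 of 19 tested genes of urea cycle and amino acid breakdown did not pass. Of 20 cholesterol and bile acid genes Cyp7a1, the rate-limiting enzyme of bile acid synthesis, and Baat, which conjugates bile acids, fell with changes of -1.48 ± 0.31 and -1.26 ± 0.20. Cyp7a1 ran from 7.48 to 9.61 (median 9.10) in RB-mutant arrays, against 10.39, 9.73, 10.48 and 10.62 in RB-functional arrays, and N750F array 5 was the lowest.

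Among 20 liver transcription factors Onecut1, also called HNF6, fell with a change of -1.30 ± 0.31 (limma adjusted p = 0.0456), and without KO array 2 the number that fell was 2. The xenobiotic receptor Nr1i3 (-1.15 ± 0.29, limma adjusted p = 0.0633) did not pass, and neither did Hnf4a (-0.19), named after its values were seen. Other large decreases were Pigr, the receptor that carries IgA into bile (-1.98 ± 0.29), and the glutamate transporter Slc1a2 (-1.79 ± 0.43, limma adjusted p = 0.0442), in which the pools overlapped.

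Of 14 circadian clock genes 1 rose and 3 fell, and without KO array 2 the counts were 2 and 5. Arntl, the clock activator BMAL1, was at 7.50, 7.92, 7.14, 7.62 and 7.28 in N750F arrays and 7.49 and 7.76 in knockout arrays, against 6.20 and 6.18 in heterozygous arrays and 6.48 and 5.88 in wild type arrays. Per3, a clock repressor, was at 7.86, 8.02, 8.20, 7.45 and 7.37 in N750F arrays and 7.33 and 7.86 in knockout arrays, against 9.38 and 8.61 in heterozygous arrays and 8.89 and 8.77 in wild type arrays. Both genes separated the pools without overlap, Arntl higher by 1.31 ± 0.18 and Per3 with -1.28 ± 0.18. Nr1d2 and Nr1d1, the REV-ERB repressors of Arntl, fell with -1.18 ± 0.18 and -0.81 ± 0.18, and in all 4 genes the knockout difference was the larger. The clock time at which livers were taken is not given in the labels.

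Markers of other cell types moved beside these groups in 2 lists. Macrophage and Kupffer cell markers rose in 3 of 15 cases (median 0.76), and all 15 changes were above 0. Cd5l, a Kupffer cell protein, was at 7.57, 7.76, 7.71, 8.35 and 8.46 in N750F arrays and 7.70 and 7.75 in knockout arrays, against 6.62 and 7.98 in heterozygous arrays and 6.45 and 7.73 in wild type arrays. Both batch 2 arrays of the RB-functional pool were higher than its batch 1 arrays, so that the pools overlapped across batches while the change with batch as a term was 0.91 ± 0.16 (limma adjusted p = 0.00699). Ctss and Lyz2, which encode macrophage enzymes, rose by 0.88 ± 0.17 and 0.87 ± 0.18, while Adgre1 (0.94 ± 0.24) and Csf1r (0.82 ± 0.23) did not pass.

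The mean level of the macrophage list was 7.76 to 8.26 in RB-mutant arrays, against 7.27 to 7.61 in RB-functional arrays, and 8.54 and 8.13 in untreated arrays, and its part in the other changes was not tested. Of 13 stellate cell and fibroblast markers Col1a2 and Reln rose, by 1.22 ± 0.23 and 1.03 ± 0.21, and the mean level was 8.06 to 8.43 in RB-mutant and 7.60 to 8.02 in RB-functional arrays. No marker of endothelial cells (14 tested), neutrophils (6), erythroid cells (7), lymphocytes (7), cholangiocytes (4), exocrine pancreas (7) or skeletal muscle (8) passed. The muscle list had a median of 0.03 although KO array 2 was high.

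**Figure D4:**
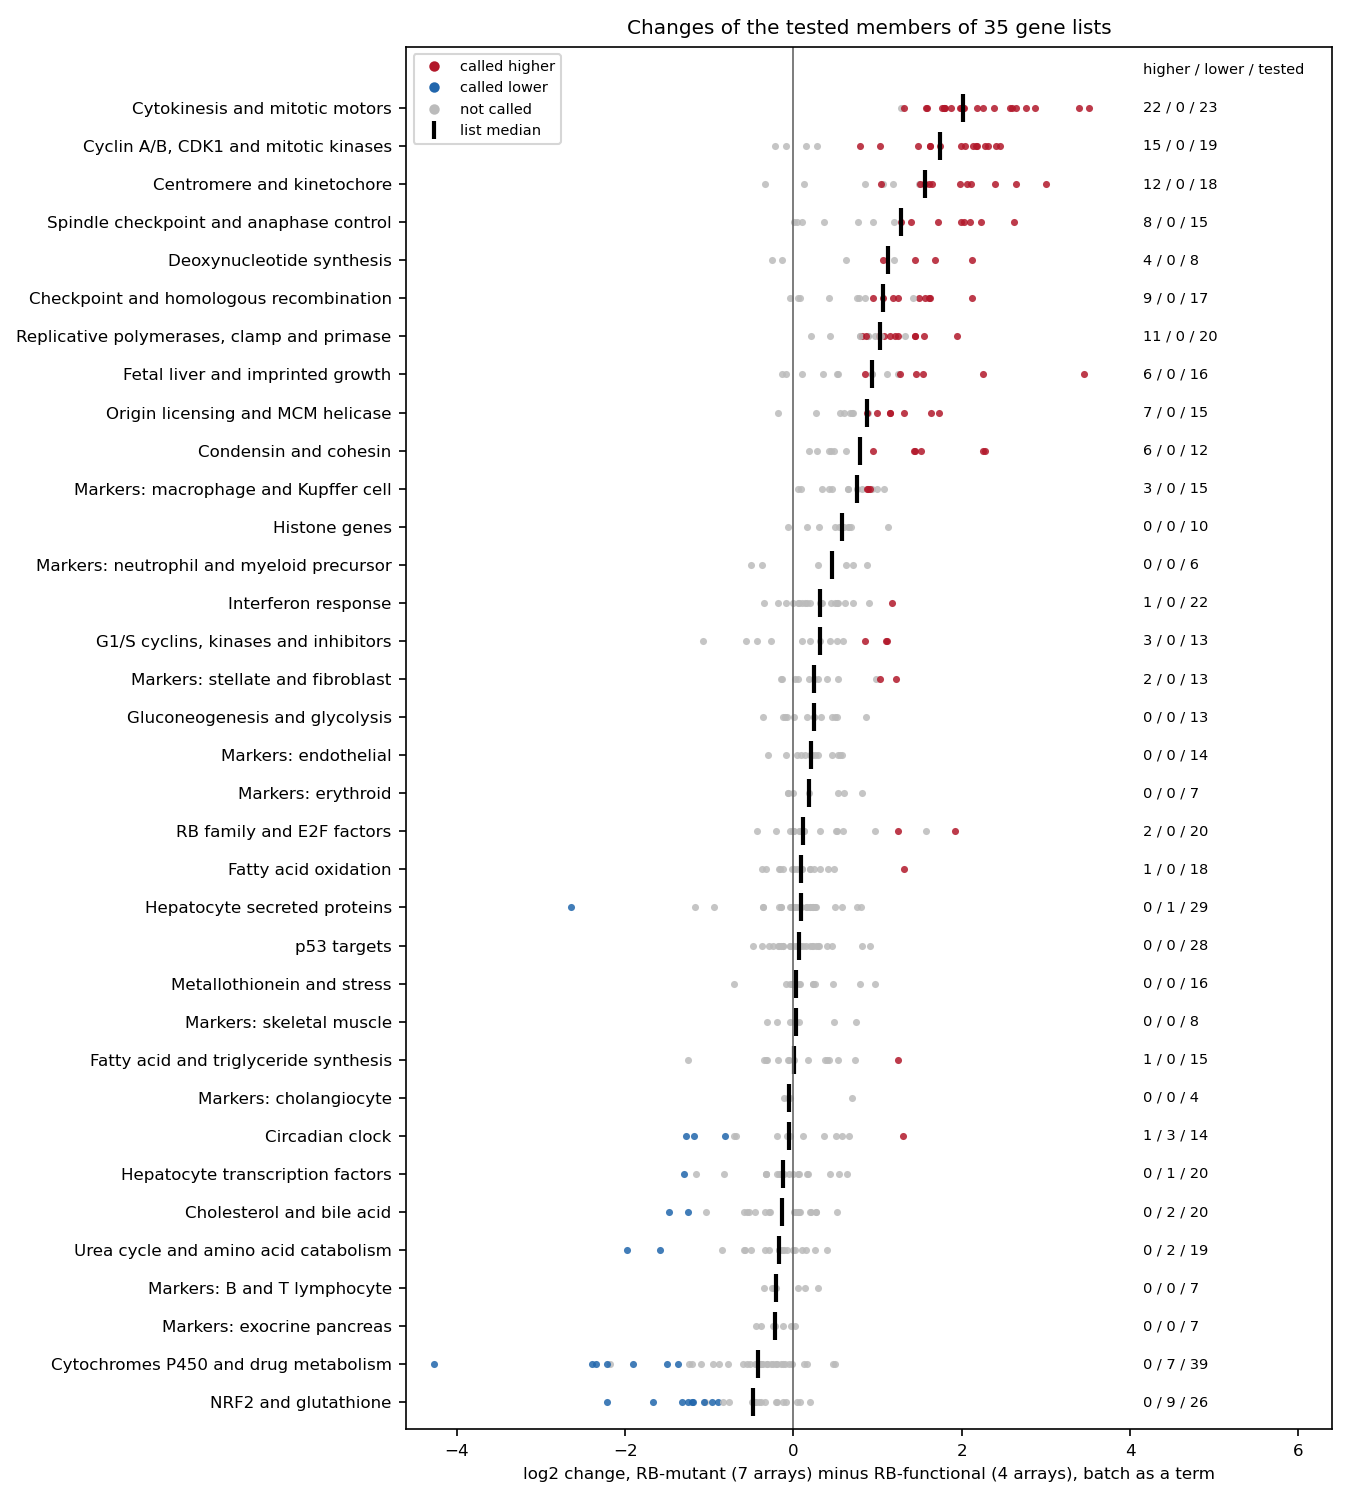
Log2 change of every tested member of 35 gene lists, RB-mutant minus RB-functional, with the genes called higher in red, lower in blue and the rest in grey. Bars mark list medians, from 2.02 for cytokinesis to -0.48 for NRF2 and glutathione, and the numbers at the right give how many members rose, fell and were tested.

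The genotypes within each pool were then compared. For N750F minus KO, 0 genes passed the limma threshold (0%), with 1672 at an unadjusted p under 0.05. No difference between the RB-mutant genotypes was therefore shown at this number of arrays. Both knockout arrays had Y-linked signal and 4 of the 5 N750F arrays lacked it. Sex and genotype can thus hardly be told apart in the values of N750F minus KO. The median of N750F minus KO was 0.42 over the cytokinesis genes and -0.02 over the fetal list. The count depended on the knockout arrays, with 413 genes without KO array 1, 3 without KO array 2 and 5 without N750F array 1. Without either knockout array that arm is a single array, in the first case KO array 2 with its muscle signal, and the spread is assumed to be that of the other groups. The smallest p belonged to Mt1, a metallothionein that binds zinc, at 9.48, 9.92, 9.44, 10.88 and 10.92 in N750F arrays and 11.54 and 11.86 in knockout arrays. Both knockout arrays were higher than all 5 N750F arrays, but the 2 batch 2 arrays of N750F were nearer to them, and knockout had batch 1 arrays alone.

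For Het minus WT, 1 gene passed (0.00669%) and 904 had an unadjusted p under 0.05. It was Akr1c18, a hydroxysteroid dehydrogenase that inactivates progesterone, at 10.47 and 10.32 in heterozygous arrays, against 5.93 and 4.84 in wild type arrays, a difference of 5.01. The heterozygous arrays lay among the RB-mutant arrays (8.41 to 10.88), and the pooled change was 1.88 ± 0.92 (limma adjusted p = 0.463). Both heterozygous arrays had Y-linked signal and both wild type DEN arrays lacked it, so that sex and genotype cannot be told apart in this difference. Without WT array 3 the count was 40, without Het array 3 it was 10, and without WT array 4 it was 0. Each of these leaves 1 array in an arm, assumed to vary like the other groups. In the pooled comparison 3 of 7 RB-mutant and 2 of 4 RB-functional arrays had Y-linked signal, and with a covariate for the Y-linked level 221 genes rose and 55 fell.

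The untreated arrays, both of batch 1, gave a further point of reference for level. Set against batch 1 arrays, their mean was nearer to the RB-mutant than to the RB-functional mean in 152 of the 240 genes that rose (63.3%) and in 41 of the 56 that fell (73.2%), beside 7926 of all 14953 genes tested (53%). In the lists the same held for 15 of 16 fetal, 20 of 26 NRF2, 27 of 39 drug metabolism and 13 of 15 macrophage genes. Among mitosis genes it held for 15 of 23 in the cytokinesis list, 10 of 19 mitotic kinases, 12 of 18 centromere and 11 of 15 spindle checkpoint genes. It held for 6 of 15 origin licensing, 11 of 20 polymerase, 3 of 8 deoxynucleotide, 8 of 20 RB family and E2F, 9 of 13 G1/S, 5 of 17 checkpoint and 4 of 12 condensin and cohesin genes. These are counts of positions with no test, and the 2 untreated arrays are 1 male and 1 female by Y-linked signal.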

How the data were processed

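Per the labels' protocols, RNA of frozen liver went through WT-Ovation Pico amplification before hybridisation to Affymetrix arrays. The authors deposited 1 linear intensity for each of 35556 probe sets on each of 13 arrays, and array medians ran from 48.2 to 83.0. The submitters' processing notes name RMA and Affymetrix Expression Console 1.1 without their roles. The genome build and the probe positions are not given in the sources used here.

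With limma 3.58.1 (R 4.3.3), the intensities of all 13 arrays were brought to 1 distribution by quantile normalization, an offset of 16 was added and log2 values were used. Genes were named through GEO's platform annotation, in which 21789 probe sets had 1 symbol, 1621 had several and 12146 were not listed. Symbols were updated for 21698 of them with RefSeq gene IDs. The probe set of highest mean stood for a gene (19938 genes). Genes below the 25th percentile of the mean over all 13 arrays were left out, which left 14953. A limma model (lmFit, eBayes) of the 11 DEN arrays held the pool and the array run, with 8 residual degrees of freedom, and a second one held the 4 genotypes and the run. All p-values of genes are from limma, adjusted by Benjamini-Hochberg over all genes tested, with a threshold of 0.05. The pooled model was tested on simulated data in which 200 genes were changed and the residuals of each array were drawn independently. It recovered 60% of changes of 1 log2 unit and 95% of those of 2, with 8 false among 163 calls. The model of 4 genotypes was not simulated.

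Genes were named by rule: Rb1, the 12 largest called changes in each direction that moved the same way in both genotypes on each side (without predicted loci, small RNAs and sex-linked genes), up to 5 members of smallest p from each of 36 gene lists, and the called or the 3 smallest-p genes of the comparisons within pools. The pools, the lists and the rules were chosen with earlier results of these data known. Lists are described by counts and medians and were not tested. Promoter windows are those of RefSeq, matched by symbol.

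Same-numbered arrays were checked for pairing: the correlation of their deviations from group means ran from -0.13 to 0.45 and was not above 0.1 in every pair, so the numbers were not used to pair arrays. No 2 arrays held identical values. Alternatives were other normalizations, offsets, filters, batch handling, weights and left-out arrays.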

Additional observations from a re-analysis of the deposited data

Results flagged for a closer look

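In each of the groups of 4 to 7 arrays, the highest and the lowest array were set against the rest with Dixon's test, for 46 genes and lists in 138 groups. An array stood out in 14 groups, where chance gives about 1 in 20 for a single group. The groups share arrays, and the lists share genes with the single genes. The 14 are therefore not independent and were not tested against chance. KO array 2 was the outlying array in 11 of the 14. It was the lowest RB-mutant array in Rb1 (6.57), Anln (6.96), Mki67 (7.95), Birc5 (5.67) and Ccne2 (7.59), and in the mean levels of deoxynucleotide synthesis (7.02), centromere and kinetochore (6.39), cytokinesis (6.78), condensin and cohesin (8.66) and checkpoint genes (6.84). It was the highest in Sult1e1 (7.37). The muscle gene Tnnt3, left out of these counts because it was chosen for its level on KO array 2, stood out likewise (11.96, where the next RB-mutant array was at 5.68).

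Among the other groups, N750F array 4 was high in Ccnb2 (8.97 among N750F arrays), N750F array 5 was low in Cyp7a1 (7.48 among RB-mutant arrays), and Het array 4 was low in the mean of the spindle checkpoint list (6.00 among RB-functional arrays). Akr1c18 differed between the RB-functional genotypes by 5.01 (Het minus WT, tested in the limma fit of 4 genotypes), so that the RB-mutant change depends on which of the 2 it is set against.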

How the results depend on the processing

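None of the called genes that were named reversed under any alternative run. The main counts were 240 higher and 56 lower. They were 12 and 6 in batch 1 alone (18 of which moved the same way), 1 and 0 in batch 2 alone (chosen after seeing the data), 0 and 0 without N750F, 117 and 31 without wild type, and 61 and 14 without heterozygous arrays, settings that use fewer arrays. With genotype as a random block, chosen after seeing the data, they were 184 and 39. Leaving out 1 array gave 140 to 406 higher, 28 to 110 lower and 168 to 516 that moved the same way, with Het array 3 at the low end and KO array 2 at the high end, 0 to 413 for N750F minus KO and 0 to 40 for Het minus WT. With the replicate block, the number in the titles in place of the run, they were 80 and 9.

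List medians moved as follows. Mitotic kinases were at 2.30 with an offset of 1, 1.20 with 50, 2.15 with a filter at the 50th percentile, 1.34 without N750F and 2.14 in batch 2 alone. Spindle checkpoint was at 1.71, 0.96 and 2.01 for the first 3 of these. The replicate block gave 1.59 for deoxynucleotide synthesis and 0.60 for the fetal list, which was 0.73 in batch 1 alone and 0.73 without wild type. Without N750F, deoxynucleotide synthesis was 0.73, checkpoint 0.73 and macrophage 0.50. Without wild type, G1/S was 0.14 and NRF2 -0.91, and in batch 2 alone G1/S was 0.13. Leaving out 1 array gave -0.73 to -0.46 for the NRF2 list, -0.13 to 0.15 for Rb1 and -0.0696 to 0.015 for Ccng1. Rb1 turned to 0.35 with the replicate block, 0.18 without knockout, 0.099 without wild type and 0.18 in batch 2 alone, and Ccng1 to 0.010 with the block, 0.033 without heterozygous arrays and 0.050 in batch 2 alone. The causes were not tested.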

Other observations

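Lipid metabolism held 2 called genes outside the groups described above. Elovl5, which elongates polyunsaturated fatty acids, was higher by 1.24 ± 0.20 (limma adjusted p = 0.00403), the only one of 15 tested genes of fatty acid and triglyceride synthesis that passed. Pdk4, the kinase that shuts glucose carbon out of the mitochondrion during fasting, was higher by 1.32 ± 0.22 (limma adjusted p = 0.00518), the only one of 18 fatty acid oxidation genes that passed, and it averaged 9.70 ± 0.37 in RB-mutant and 8.30 ± 0.48 in RB-functional arrays (SD, n = 7 and n = 4). Both were free of overlap between the pools. Thrsp, a lipogenic gene, had a change of -1.26 ± 0.35 that did not pass (limma adjusted p = 0.106).

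None of 13 genes of gluconeogenesis and glycolysis passed, with G6pc, glucose-6-phosphatase, at 0.86 ± 0.21 (limma adjusted p = 0.0565) closest to the threshold. Of 22 interferon-response genes Herc6 rose, by 1.17 ± 0.28 (limma adjusted p = 0.0456). None of 10 histone genes and none of 16 metallothionein and stress genes passed in either direction. Without KO array 2, 2 histone genes, 1 metallothionein and stress gene and 1 gene of gluconeogenesis and glycolysis rose. Mt1, the gene of smallest p between the RB-mutant genotypes, where none passed, had a pooled change of -0.01 ± 0.42. Usp2, a ubiquitin protease chosen after its values were seen, fell with -0.78 ± 0.19 (limma adjusted p = 0.0489), and Shcbp1, a midbody protein, rose by 2.76 ± 0.36.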
